A study of Homo sapiens with 2 samples.

Results

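Retinoic acid (RA) is made, carried and destroyed inside cells by a small set of proteins, and the 9 genes that encode the best known of them were followed here in SK-N-AS neuroblastoma cells with and without serine-threonine kinase receptor-associated protein (STRAP). The genes were taken by symbol, with no cutoff on their values, and were STRA6, ALDH1A1, ALDH1A2, ALDH1A3, DHRS3, CRABP1, CRABP2, CYP26A1 and CYP26B1, that is 9 genes in a table of 62573 rows. The AS STRAP KO cells were SK-N-AS cells in which STRAP was disrupted by CRISPR-Cas9, and they were grown from a single sorted cell, so they are 1 clone. The AS WT cells were the SK-N-AS culture without editing, for which no single-cell cloning is described. SK-N-AS is an established human neuroblastoma line without MYCN amplification, and both cultures were untreated and kept in the same serum-containing medium. Poly A+ RNA was sequenced, and each group had 1 column of FPKM, the number of reads per kilobase of transcript, scaled for the depth of the library. With 1 column per group, treated as 1 library, there was no replicate check and no test was possible from these values. Effects of losing STRAP, of cloning and of the library cannot be told apart, and in bulk RNA fewer expressing cells and less RNA per cell cannot be told apart either.

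RA is a derivative of vitamin A. STRA6 is a membrane receptor that lets retinol into the cell. Retinol is oxidised to retinal, which DHRS3 reduces back to retinol. The 3 retinaldehyde dehydrogenases ALDH1A1, ALDH1A2 and ALDH1A3 oxidise retinal to RA in a step that is not reversed. In the cytoplasm RA is held by CRABP1 and CRABP2, and CRABP2 passes it on to RA receptors in the nucleus. CYP26A1 and CYP26B1 are cytochrome P450 enzymes that hydroxylate RA and so clear it. RA drives many neuroblastoma lines towards a neuronal state, and isotretinoin, an isomer of RA, is part of the treatment of high-risk neuroblastoma. CYP26A1, CRABP2, DHRS3 and the receptor gene RARB are themselves known to be induced by RA in many cell types.

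RA receptors, as pairs with RXR, bind direct repeats of a core motif, so the start sites of the genes are shown first. The motif was searched as AGGTCA and also as AGTTCA, as GGGTCA and also as GGTTCA, on either strand, in RefSeq windows (GRCh38.p14) of 250 bases before to 50 bases after each start site. A core motif was found in 38.6% of all 35114 windows. Direct repeats spaced by 1, 2 or 5 bases were found in 0.131%, 0.0399% and 0.0883% of them. All 9 genes had a window, and only that of CYP26A1 held such a repeat, with a spacer of 5 bases. It lay 90 bases before the start site on chromosome 10, from 93073803 to 93073819. Among the other retinoid genes listed here, RARB held a repeat with the same spacer 53 bases before its start site on chromosome 3, from 25428210 to 25428226. These stretches are shown to let the repeats be compared, with the core motifs in capitals. CYP26A1 is given on the strand opposite to the gene and RARB on the strand of the gene.
CYP26A1: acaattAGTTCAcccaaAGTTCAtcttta
RARB: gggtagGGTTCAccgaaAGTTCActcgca
Both repeats had AGTTCA as their second core motif, and their first core motifs were AGTTCA in CYP26A1 and GGTTCA in RARB. A match of this kind is a description of the letters, not evidence of a bound site.

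The whole windows of CYP26A1 and of the 3 genes with the widest differences between the libraries among those expressed are shown next, on the strand of each gene, again with core motifs in capitals. They lie at chr10:93073643-93073942 (plus strand), chr2:72147813-72148112 (minus strand), chr1:156705735-156706034 (minus strand) and chr15:58065662-58065961 (minus strand). The CRABP2 window is set on a RefSeq start 201 bases from that of the reference transcript used for its length.
CYP26A1: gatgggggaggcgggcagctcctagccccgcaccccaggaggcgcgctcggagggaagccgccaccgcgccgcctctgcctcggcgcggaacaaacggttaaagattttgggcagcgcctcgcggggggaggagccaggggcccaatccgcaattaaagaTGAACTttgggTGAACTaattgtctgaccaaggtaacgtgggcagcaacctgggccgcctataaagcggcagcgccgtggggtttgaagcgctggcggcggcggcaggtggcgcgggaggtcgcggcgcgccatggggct
CYP26B1: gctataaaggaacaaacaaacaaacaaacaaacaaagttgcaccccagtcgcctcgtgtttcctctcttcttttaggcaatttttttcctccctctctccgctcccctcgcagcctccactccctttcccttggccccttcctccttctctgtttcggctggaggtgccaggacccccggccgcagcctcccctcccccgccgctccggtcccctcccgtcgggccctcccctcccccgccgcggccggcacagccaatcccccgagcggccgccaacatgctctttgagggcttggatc
CRABP2: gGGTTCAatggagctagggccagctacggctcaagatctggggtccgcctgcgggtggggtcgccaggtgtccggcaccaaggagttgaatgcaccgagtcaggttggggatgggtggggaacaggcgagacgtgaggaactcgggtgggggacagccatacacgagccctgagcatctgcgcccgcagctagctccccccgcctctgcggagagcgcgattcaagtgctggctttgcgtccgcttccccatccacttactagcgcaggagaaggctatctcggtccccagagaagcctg
ALDH1A2: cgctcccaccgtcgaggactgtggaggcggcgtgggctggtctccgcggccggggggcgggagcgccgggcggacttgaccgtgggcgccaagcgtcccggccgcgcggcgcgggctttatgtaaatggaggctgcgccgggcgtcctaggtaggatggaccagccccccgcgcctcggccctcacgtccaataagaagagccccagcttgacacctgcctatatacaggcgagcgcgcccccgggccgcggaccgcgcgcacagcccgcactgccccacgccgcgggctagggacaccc
The CRABP2 window held 1 core motif and no repeat, and the CYP26B1 and ALDH1A2 windows held none. No match says only that these letters were not in these windows.

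Of the 9 genes, 6 reached 1 FPKM in at least 1 library and were counted as expressed, and 3 did not. In AS STRAP KO against AS WT, 4 of the 6 (ALDH1A2, CRABP2, CRABP1 and DHRS3) were at least 2-fold lower, CYP26B1 was 17.6-fold higher, and ALDH1A3 was within 2-fold. ALDH1A2 reached 1 FPKM in AS WT only and CYP26B1 in AS STRAP KO only, so each was counted through the library where it was high. Among all 13527 rows that reached 1 FPKM, 10.6% lay at or beyond the same cutoff on the lower side, 8.31% on the higher side, and 18.9% were beyond 2-fold in either direction. With at least 1 FPKM in both libraries, 4 genes were left, with 3 lower and 0 higher. That filter kept 11846 rows, of which 680 were lower and 577 higher. The median log2 ratio of the 6 genes was -1.24, beside 0.01 over all expressed rows with a value above 0 in both libraries. The balance of lower and higher rows depended on scaling. There were 1434 lower and 1124 higher rows as deposited, 1501 and 1597 after rescaling each library to a common total of FPKM (TPM), and 1782 and 905 after scaling to the upper quartile of rows above 0. These counts cover few genes and describe the genes without testing them.

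**Figure D1:**
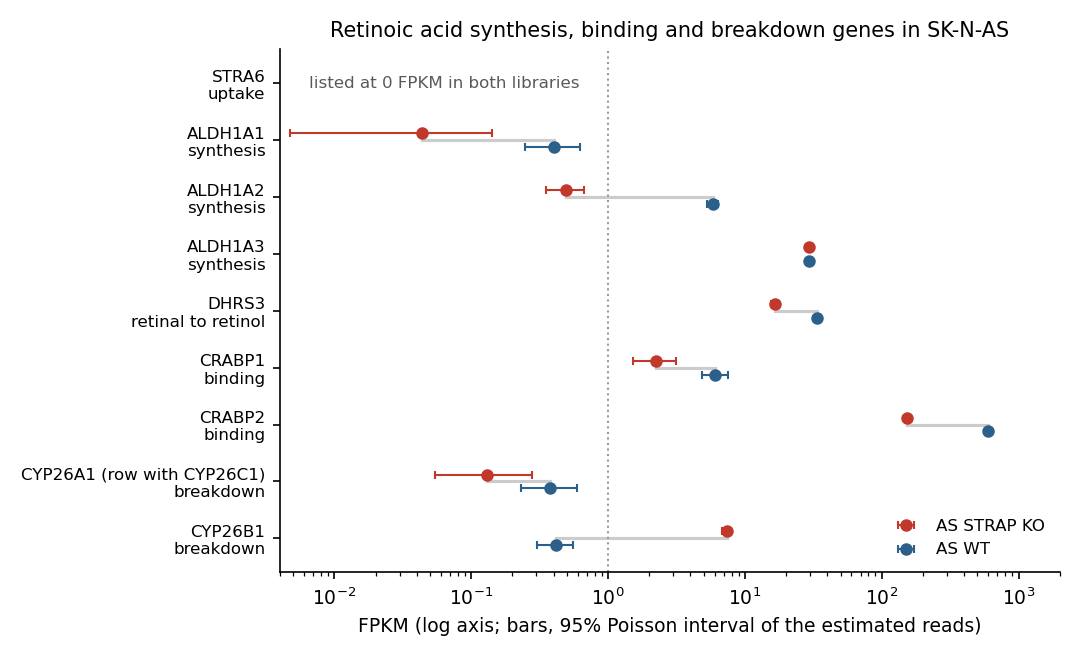
Level of each of the 9 genes in FPKM (log axis) in AS STRAP KO (red) and AS WT (blue). Bars are 95% Poisson intervals of the estimated reads and the dotted line is 1 FPKM. CYP26B1 is the only gene with its AS STRAP KO point clearly to the right, and STRA6 is listed at 0.

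The precision of each level was set by its reads, which were estimated from the steps between low FPKM values. At 1 FPKM a kilobase of transcript carried 26.9 reads in AS STRAP KO and 26.0 reads in AS WT, so the depths were close. The 95% intervals given in square brackets are exact Poisson intervals of these reads for a level, and exact Clopper-Pearson intervals for a log2 ratio. They cover counting error only and say nothing of the spread between cultures. The reads assume the length of 1 reference transcript per gene, while these genes have from 3 to 25 annotated transcripts. Read numbers and interval widths are therefore approximate.

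STRA6, the retinol receptor (chromosome 15, 74179466 to 74212267, minus strand, GRCh38), had 2 rows in the table, both listed at 0 in both libraries. This cannot be read as absence of the transcript. Protein-coding symbols with more than 1 row were listed at 0 in both libraries in 69.9% of cases (834 of 1193), beside 15.7% (2789 of 17776) of symbols with 1 row. DGAT1, RDH13, DHRS4 and RXRB, which also had several rows each, were likewise at 0.

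The retinaldehyde dehydrogenases differed from each other. ALDH1A3 (chromosome 15, 100877714 to 100916626, plus strand) stood at 29.2 FPKM [28.1 to 30.3] in AS STRAP KO and 29.4 FPKM [28.3 to 30.6] in AS WT. Its log2 ratio was -0.01 [-0.09 to 0.07], and its sign turned positive, 0.09, after TPM rescaling. ALDH1A3 was therefore level between these libraries to within the counting error as deposited.

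ALDH1A2, the main RA-producing enzyme of the early embryo in the mouse (chromosome 15, 57953424 to 58497866, minus strand), stood at 0.493 FPKM [0.353 to 0.663] in AS STRAP KO and 5.82 FPKM [5.31 to 6.36] in AS WT. It was 11.8-fold lower in AS STRAP KO, with a log2 ratio of -3.56 [-4.06 to -3.11], from about 42.3 reads against 482 reads. Only 270 of the 13527 expressed rows had a lower ratio. ALDH1A1 (chromosome 9, 72900671 to 73080442, minus strand), often used as a marker of stem-like tumor cells, was under 1 FPKM in both libraries. It had 0.0437 FPKM [0.00475 to 0.142] in AS STRAP KO and 0.4001 FPKM [0.248 to 0.626] in AS WT, which is about 2.23 reads against 19.7 reads. Its log2 ratio of -3.19 [-6.51 to -1.33] was thus poorly fixed in size.

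Summed over the 3 enzymes, ALDH1A transcripts came to 29.7 FPKM in AS STRAP KO and 35.6 FPKM in AS WT, a log2 ratio of -0.26. ALDH1A3 made up 98.2% of that sum in AS STRAP KO and 82.6% in AS WT. ALDH1A2 made up 1.66% in AS STRAP KO and 16.3% in AS WT. The total therefore moved little while its make-up shifted to ALDH1A3.

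DHRS3, the retinal reductase (chromosome 1, 12567910 to 12618210, minus strand), stood at 16.5 FPKM [15.5 to 17.7] in AS STRAP KO and 33.8 FPKM [32.2 to 35.4] in AS WT. It was 2.04-fold lower in AS STRAP KO, with a log2 ratio of -1.03 [-1.15 to -0.91]. This lies just beyond the 2-fold line, and the ratio was -0.92 after TPM rescaling and -0.99 with 1 FPKM added to each value, both inside it.

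Both cellular RA-binding proteins were lower in AS STRAP KO. CRABP2 (chromosome 1, 156699606 to 156705816, minus strand) was the most abundant of the 9 genes in each library, at 154 FPKM [149 to 160] in AS STRAP KO and 599 FPKM [588 to 610] in AS WT. Its log2 ratio was -1.96 [-2.01 to -1.90], that is 3.88-fold lower, and 553 expressed rows had a lower one. Even so it remained high, at percentile 94.5 of expressed rows in AS STRAP KO and percentile 98.8 in AS WT. CRABP1 (chromosome 15, 78340353 to 78348225, plus strand) stood at 2.23 FPKM [1.51 to 3.12] in AS STRAP KO and 6.08 FPKM [4.85 to 7.50] in AS WT. It was 2.73-fold lower, with a log2 ratio of -1.45 [-2.09 to -0.86], and its interval reached inside the 2-fold line. The CRABP sum was 157 FPKM in AS STRAP KO and 605 FPKM in AS WT, and CRABP2 made up 98.6% of it in AS STRAP KO and 99.0% in AS WT.

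Of the CYP26 genes, which clear RA, CYP26B1 was higher in AS STRAP KO and alone reached 1 FPKM. CYP26B1 (chromosome 2, 72129238 to 72147862, minus strand) stood at 7.35 FPKM [6.86 to 7.85] in AS STRAP KO and 0.418 FPKM [0.305 to 0.552] in AS WT. Its log2 ratio was 4.14 [3.72 to 4.60], from about 860 reads against 47.3 reads, and 181 expressed rows had a higher one. CYP26A1, the gene with the repeat shown above (chromosome 10, 93073475 to 93077885, plus strand), shared its row with the adjoining CYP26C1, so the reads of these genes could not be separated. That row held 0.131 FPKM [0.0546 to 0.280] in AS STRAP KO and 0.375 FPKM [0.229 to 0.595] in AS WT. It was below 1 FPKM in both libraries, with about 6.75 reads against 18.7 reads and a log2 ratio of -1.52 [-2.98 to -0.18]. These reads and intervals assume the transcript length of CYP26A1. With that of CYP26C1 the row had about 9.43 reads in AS STRAP KO and 26.1 reads in AS WT, and the ratio interval was [-2.86 to -0.44].

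The CYP26 sum was 7.48 FPKM in AS STRAP KO and 0.792 FPKM in AS WT, a log2 ratio of 3.24, with CYP26B1 making up 98.3% of it in AS STRAP KO and 52.7% in AS WT. The ALDH1A sum was 3.97 times the CYP26 sum in AS STRAP KO and 45.0 times in AS WT. CYP26B1 alone was 25.2% of ALDH1A3 in AS STRAP KO and 1.42% in AS WT. Other enzymes listed as able to hydroxylate RA are not part of these ratios. Of them, CYP2S1 had 27.6 FPKM in AS STRAP KO and 33.1 FPKM in AS WT, and the row of CYP4V2 had 8.73 FPKM in AS STRAP KO and 4.81 FPKM in AS WT. These are ratios of transcript levels, and enzyme activity and RA itself were not measured in these files.

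**Figure D2:**
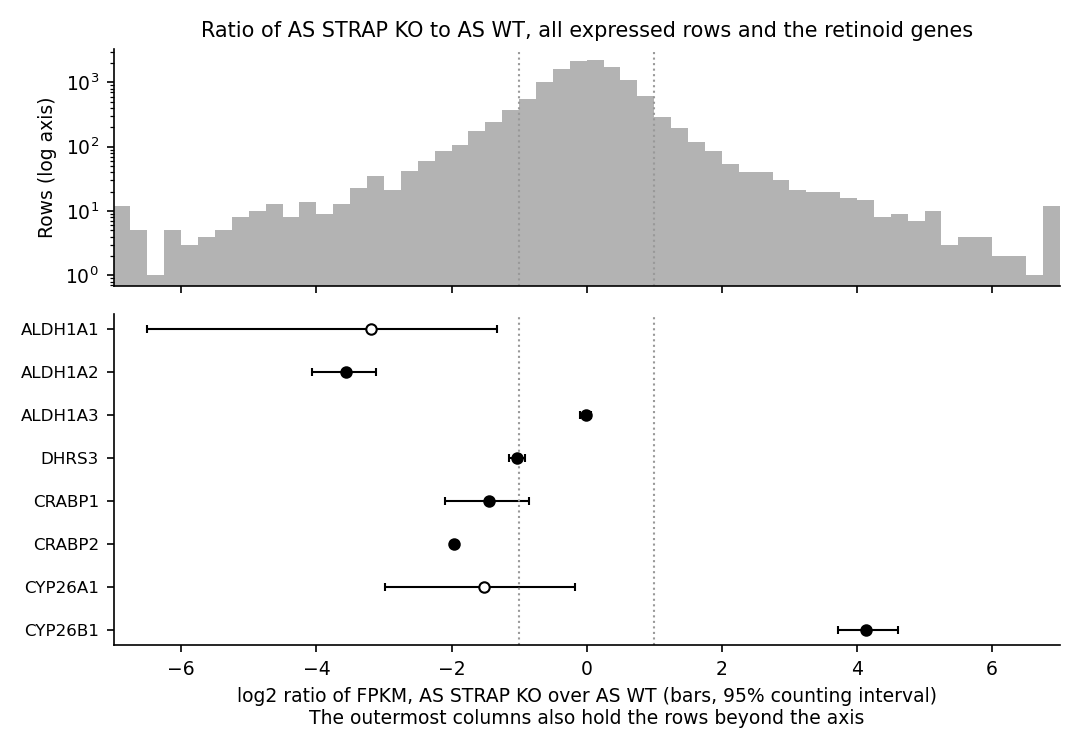
Top, number of expressed rows (log axis) by log2 ratio of AS STRAP KO over AS WT. Bottom, the ratio of each gene with its 95% counting interval, open circles marking genes under 1 FPKM in both libraries and dotted lines a 2-fold difference. ALDH1A2 and CYP26B1 sit far out in opposite tails at -3.56 and 4.14, and ALDH1A3 sits at -0.01.

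Ordered by level per transcript length, AS STRAP KO had CRABP2 first, then ALDH1A3, DHRS3, CYP26B1, CRABP1, ALDH1A2, the CYP26A1 row and ALDH1A1. Only the last pair overlapped in their counting intervals. In AS WT the order was CRABP2, DHRS3, ALDH1A3, CRABP1, ALDH1A2, CYP26B1, ALDH1A1 and the CYP26A1 row. There CRABP1 and ALDH1A2 overlapped in their intervals, as did the last 3. CYP26B1 thus stood above CRABP1 and ALDH1A2 in AS STRAP KO and below them in AS WT.

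By log2 FPKM in the 2 libraries, the 3 single-gene rows nearest to CYP26B1 were B3GNT8, CLIC6 and TP73. B3GNT8, a glycosyltransferase gene, stood at 7.72 FPKM in AS STRAP KO and 0.436 FPKM in AS WT (distance 0.0943). CLIC6, a chloride intracellular channel family gene, stood at 7.57 FPKM in AS STRAP KO and 0.390 FPKM in AS WT (distance 0.107). TP73, of the p53 family, stood at 5.94 FPKM in AS STRAP KO and 0.373 FPKM in AS WT (distance 0.347). With only 2 libraries such likeness is a match of levels and no more.

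The rest of the retinoid pathway went both ways. Over 5 lists covering retinol handling, retinol and retinal oxidoreductases, other hydroxylases, receptors and RA response genes, 73 genes in 71 rows other than those above were followed, of which 43 reached 1 FPKM. Of these 43, 6 (14.0%) passed the 2-fold cutoff as lower, beside 10.6% of all expressed rows, and 8 (18.6%) passed it as higher, beside 8.31%, and their median log2 ratio was 0.05. Of the 8 higher, RBP4, RBP7, HOXA5, the HOXA4 row and RARRES2 reached 1 FPKM in AS STRAP KO only. Of the 6 lower, BCO1 reached it in AS WT only.

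In the list of retinol uptake, binding and storage, 6 of 12 genes were expressed, with 2 lower, 2 higher and a median of -0.05. BCO1, which cleaves beta-carotene to retinal, had 0.510 FPKM in AS STRAP KO and 1.37 FPKM in AS WT. RBP4, the serum retinol carrier, was 36.2-fold higher, with 11.2 FPKM in AS STRAP KO and 0.311 FPKM in AS WT, the AS WT value resting on about 7.04 reads. RBP7, a cellular retinol-binding protein, had 3.28 FPKM in AS STRAP KO and was listed at 0 in AS WT.

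Among 20 oxidoreductases of retinol and retinal, 7 were expressed and 6 of them were within 2-fold, where 18.9% of all expressed rows were beyond it. The exception was AKR1B10, an aldo-keto reductase that can reduce retinal, with 2.46 FPKM in AS STRAP KO and 1.03 FPKM in AS WT. RDH10, the main retinol dehydrogenase of the embryo in the mouse, had 9.57 FPKM in AS STRAP KO and 7.13 FPKM in AS WT. Of 5 other hydroxylases 2 were expressed, and both were within 2-fold. Several rows in these lists were merged with neighbouring genes, those of BCO2, RDH5, RDH11, RDH14 and CYP4V2 among them, and their values cannot be given to 1 gene.

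Of 14 genes for receptors and nuclear delivery 12 were expressed and 10 were within 2-fold, with a median of 0.19. Over all expressed rows 18.9% were beyond 2-fold, so this count is near that of any expressed genes. RARA had 14.5 FPKM in AS STRAP KO and 19.8 FPKM in AS WT. RARG had 23.0 FPKM in AS STRAP KO and 22.1 FPKM in AS WT. RARB, which holds the repeat shown above, had 2.53 FPKM in AS STRAP KO and 1.397 FPKM in AS WT, a log2 ratio of 0.86 [0.50 to 1.20]. All 3 RA receptor genes were thus expressed in both libraries and within 2-fold, though the interval of RARB crossed the 2-fold line.

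Among their partners RXRA had 8.79 FPKM in AS STRAP KO and 6.37 FPKM in AS WT. RXRB had 6 rows, all at 0, and RXRG had 0.0637 FPKM in AS STRAP KO and was listed at 0 in AS WT. FABP5, which carries RA to PPARD as CRABP2 carries it to RA receptors, had 1.74 FPKM in AS STRAP KO and 8.02 FPKM in AS WT, a log2 ratio of -2.20. FABP5 has near-identical copies in the genome that can take its reads, so that value is uncertain. NCOA3, a coactivator of nuclear receptors, had 7.58 FPKM in AS STRAP KO and 2.84 FPKM in AS WT.

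Known RA response genes went both ways. Of 24, 18 were expressed, with 3 lower, 4 higher, 11 within 2-fold and a median of -0.07. Over all expressed rows 10.6% were lower and 8.31% higher. Of the 4 higher, HOXA5, the HOXA4 row and RARRES2 reached 1 FPKM in AS STRAP KO only. With at least 1 FPKM in both libraries 15 genes were left, with 3 lower, 1 higher and a median of -0.213. Over all 11846 rows kept by that filter, 680 were lower and 577 higher. SPOCK1, a proteoglycan gene, had 1.19 FPKM in AS STRAP KO and 8.01 FPKM in AS WT. NAV2, a neuron navigator gene induced by RA in neuroblastoma cells, had 2.27 FPKM in AS STRAP KO and 8.52 FPKM in AS WT. HOXA5, a homeobox gene, had 5.51 FPKM in AS STRAP KO and 0.585 FPKM in AS WT. The row of HOXA4, which it shared with HOXA3 and HOXA6, had 1.91 FPKM in AS STRAP KO and 0.115 FPKM in AS WT. The other genes beyond 2-fold were RET, lower in AS STRAP KO, and RARRES2 and DUSP6, both higher.

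**Figure D3:**
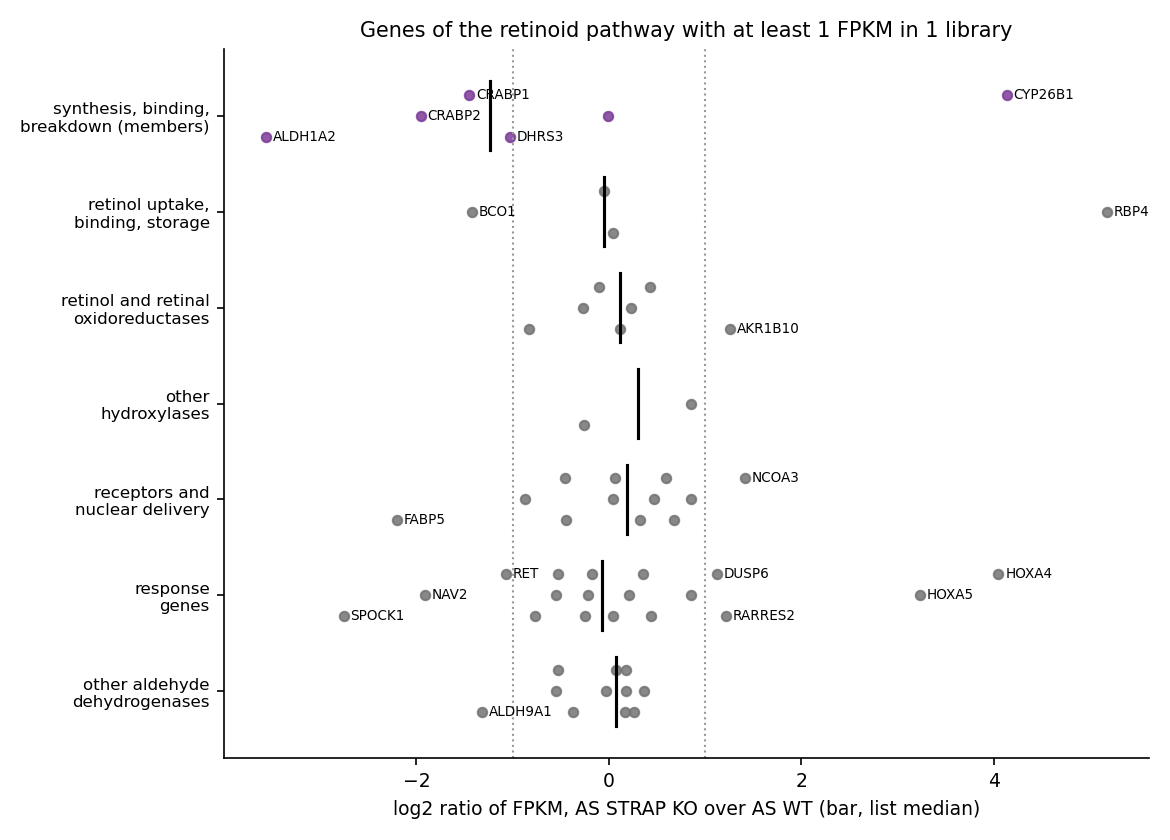
Log2 ratio of AS STRAP KO over AS WT for the expressed genes of each retinoid list with a value above 0 in both libraries, 1 point per gene, black bars marking list medians and dotted lines a 2-fold difference. The synthesis, binding and breakdown genes (purple) have a median of -1.24, and the medians of the other lists lie between -0.07 and 0.30. RBP7, listed at 0 in AS WT, and a gene not reported here are not drawn.

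The labelled cell type and the target gene were checked. STRAP had 179 FPKM in AS STRAP KO and 244 FPKM in AS WT, a log2 ratio of -0.45, which is a transcript level and does not report on the protein. Of 8 markers of adrenergic neuroblastoma 6 were expressed, and 3 of these were lower. PHOX2A had 12.0 FPKM in AS STRAP KO and 50.05 FPKM in AS WT, and ISL1 had 0.734 FPKM in AS STRAP KO and 2.69 FPKM in AS WT. The summed adrenergic level was 330 FPKM in AS STRAP KO and 445 FPKM in AS WT, and TH was at 0 in both libraries. All 8 markers of mesenchymal neuroblastoma were expressed, with 1 lower and 1 higher. Their median log2 ratio was 0.36, with 5 above 0 and 3 below. Their sum was 1513 FPKM in AS STRAP KO and 1774 FPKM in AS WT. Most of that sum was VIM, at 896 FPKM in AS STRAP KO and 1368 FPKM in AS WT, so the sum and the median differed in direction. The part of these marker differences in the retinoid genes was not tested. CD3E of leukocytes, SOX10 and S100B of Schwann cells and CDH1 of epithelium were at 0 in both libraries, and no endothelial marker reached 1 FPKM. PTPRC of leukocytes was also at 0, but it had several rows and that value cannot be read as absence.

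Finally, the genes around each of the 9 were examined, since ALDH1A2, ALDH1A3, CRABP1 and STRA6 all lie on chromosome 15. The 5 nearest expressed protein-coding genes on either side of each gene were taken, with exactly 1 row of their own and a value above 0 in both libraries. Genes found only in merged rows, with several rows, or listed at 0 in 1 library were skipped, so more extreme neighbours may be missed. The median log2 ratio over chromosome 15 without the gene itself was -0.30 around ALDH1A2 (318 genes), beside 0.15 over chromosome 2 and 0.06 over chromosome 1. The 10 neighbours of ALDH1A2 had a median of -0.10 and ranged from -1.23 to 0.29, none as low as its own -3.56. The 10 neighbours of CYP26B1 had a median of 0.06 and ranged from -0.25 to 0.36, none near its own 4.14. The 10 neighbours of CRABP2 had a median of 0.26, and the lowest was -0.43, above its own -1.96.

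Other genes lay within the range of their neighbours. The neighbours of CRABP1 had a median of -0.53 and the highest was at 0.00. Of the 10, 3 were also at least 2-fold lower, namely CIB2 at -1.12, ACSBG1 at -1.78 and the nicotinic receptor gene CHRNA3 at -1.91. CRABP1 at -1.45 therefore lay within the range of its neighbours. DHRS3 at -1.03 also lay within the range of its neighbours, -1.59 to 0.29, whose median was -0.03. So did ALDH1A3 at -0.01 (-0.338 to 0.251) and the CYP26A1 row at -1.52 (-4.94 to 5.18). ALDH1A1 at -3.19, under 1 FPKM in both libraries, lay below its lowest neighbour at -1.33. With the chromosome median taken away, the log2 ratio was -3.25 for ALDH1A2, -1.14 for CRABP1 and -2.01 for CRABP2. It was -1.09 for DHRS3 and 3.99 for CYP26B1. The chromosome medians were small beside the ratios of these genes, so none of their signs could change. An effect of the chromosome was not tested.

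**Figure D4:**
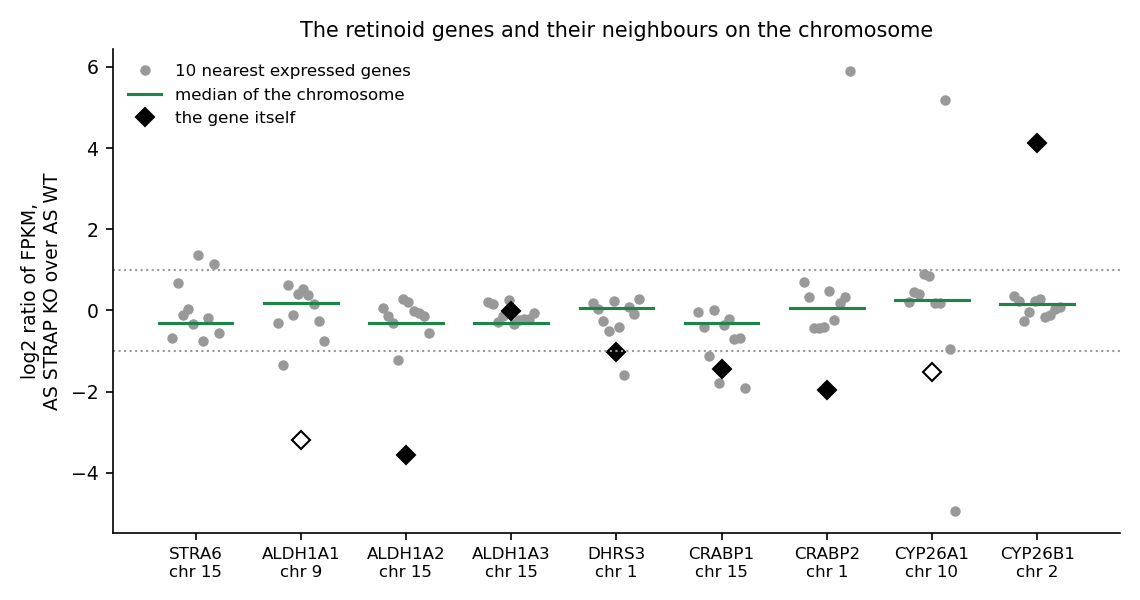
Log2 ratio of AS STRAP KO over AS WT for each gene (diamond, open where it is under 1 FPKM in both libraries) and its 10 nearest expressed genes (grey), with the median of the chromosome as a green line. Of the expressed genes, ALDH1A2, CRABP2 and CYP26B1 lie outside the range of their neighbours, and ALDH1A3, CRABP1 and DHRS3 lie within it. Of the open diamonds, ALDH1A1 lies outside that range and the CYP26A1 row within it. STRA6, listed at 0, has no diamond. Neighbours found only in merged rows, with several rows, or listed at 0 in 1 library are not drawn.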

How the data were processed

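Poly A+ RNA of 1 AS STRAP KO and 1 AS WT sample was sequenced as single-end reads of 75 bases. Per the labels and the study's methods, reads were aligned with STAR (version 2.7.6 in the submitters' processing notes) to GRCh38 with GENCODE release 32, and Cufflinks 2.2.1 with Cuffmerge and Cuffdiff gave the levels. The authors deposited 1 table of FPKM with 1 column per group. The paper states in general that its experiments had biologic replicates, and it reports significant differences for this comparison. No source used here says whether replicates were pooled into a column. Each column was treated here as 1 library, and the authors' test cannot be repeated from these values. Cuffmerge joins overlapping genes into shared rows.

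Levels were used as deposited, with a plain log2 ratio of AS STRAP KO over AS WT, no pseudocount, and a minimum of 1 FPKM in at least 1 library for counting. A 2-fold difference was the cutoff. No p-value was computed with 1 library per group. Reads per kilobase were estimated from low values of single-transcript genes, where 94.1% of 320 values in AS STRAP KO and 95.7% of 368 in AS WT were whole reads within 0.1. GENCODE release 44 gave positions and reference transcript lengths, for an assumed fragment length of 200 bases. The estimate of depth was tested on simulated data built with the same fragment length and 1 transcript per gene. That test cannot check these assumptions. Python 3.11.15, numpy 2.4.6, pandas 2.3.3 and SciPy 1.17.1 were used.

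The 9 genes and the lists were chosen with earlier results of these data known. All 9 genes are named, with up to 4 expressed genes beyond 2-fold and largest in ratio per list, any such gene at 0 in 1 library, the RA and RXR receptors, STRAP, and the 3 rows nearest to the expressed gene with the largest ratio. RDH10, CYP2S1, CYP4V2, the neighbouring genes and others named outside this rule, were chosen after their values were seen. Alternatives covered the pseudocount, the filter, the scaling, the rows per symbol and the fold cutoff. Some genes of the lists are counted but not reported here by name.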

Additional observations from a re-analysis of the deposited data

How the results depend on the processing

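No alternative reversed a ratio of an expressed gene beyond 2-fold, and none could have done so. An equal added value, a filter or a cutoff cannot change a sign, and the shifts from scaling were small beside these ratios. The alternatives therefore bear on the size of the ratios and on the counts. With 1 FPKM added to each value, the log2 ratio was -0.424 for ALDH1A1, -2.19 for ALDH1A2 and 2.56 for CYP26B1, and the median of the genes was -1.06. Without a filter the median was -1.48. With at least 1 FPKM in both libraries 4 genes were left, since ALDH1A2 and CYP26B1 were not kept, with 3 lower and 0 higher. The number of lower genes, 4 as deposited, was also 3 after TPM rescaling and with 1 FPKM added, since DHRS3 then lay inside 2-fold. After TPM rescaling, which moved all ratios by 0.107, ALDH1A3 was at 0.0947, CRABP2 at -1.85 and the median at -1.13. After scaling to the upper quartile of rows above 0, chosen after seeing the data, which moved all ratios by -0.158, ALDH1A3 was at -0.171, CRABP2 at -2.11, DHRS3 at -1.19 and the median at -1.4. After subtraction of the chromosome median, also chosen after seeing the data, ALDH1A3 was at 0.293, CRABP2 at -2.01 and the median at -1.12. With a 3-fold cutoff 2 genes were lower. For the other lists, 40 of 240 values moved, and 9 of 72 medians changed sign. In rows of 1 symbol the other hydroxylases had a median of -0.263, against 0.298 as deposited, and the retinol list -0.687, against -0.0476. Over all rows, 1434 lower and 1124 higher became 866 and 719 with 1 FPKM added, 680 and 577 with 1 FPKM in both libraries, and 5990 and 4110 without a filter. Depth limited ALDH1A1 and the CYP26A1 row most.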

Other observations

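The other aldehyde dehydrogenases, whose substrates are mostly other aldehydes, were mostly within 2-fold. Of 16 genes 11 were expressed and 10 were within 2-fold, with a median log2 ratio of 0.07. Over all expressed rows 18.9% were beyond 2-fold. ALDH9A1, which takes part in carnitine synthesis, was the exception, with 98.6 FPKM in AS STRAP KO and 246 FPKM in AS WT, a log2 ratio of -1.32.

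Some neighbours of the retinoid genes stood far out, and they were picked after their values were seen. RBP4 at 5.18 and LGI1 at -4.94 both lay within the 10 genes around CYP26A1, at 0.518 and 0.684 Mb from it. SH2D2A, an adaptor gene of T cells, lay 0.107 Mb from CRABP2 with a log2 ratio of 5.89, opposite in sign to CRABP2 at -1.96.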
